A study of Mus musculus with 4 samples.

Results

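The genes described here encode the machinery that sorts cargo through endosomes, the membrane compartments that receive proteins taken up from the cell surface. They comprise 45 genes chosen by name: Rab GTPases of early, recycling and late endosomes with their effectors, the ESCRT complexes, retromer, sorting nexins, the HOPS tethering complex and the lipid kinase PIKfyve. All 45 were found in the deposited table of 37305 rows, each on a single row, and all 45 passed the filter on low values, which asked for an average of 1 FPKM or more across 4 libraries. FPKM divides the fragments of a gene by its transcript length and by the size of the library, so levels of different genes can be set side by side. RNA was measured in primary natural killer (NK) cells from spleens of C57BL/6 mice of 56 postnatal days. Cells of both groups were first kept for 24 hours with 50 ng/ml mouse IL-15, which NK cells need to survive. They were then kept for a further 24 hours with DKK2 at 200 ng/ml (2 libraries) or with mock treatment (control, 2 libraries). DKK2, a secreted Dickkopf protein, binds LRP5 and LRP6, which are co-receptors for Wnt ligands.

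Receptors enter early endosomes, which carry Rab5 and its tether EEA1. From there cargo either returns to the surface through Rab4 and Rab11 endosomes, is retrieved by retromer and sorting nexins, or is tagged with ubiquitin and passed to the ESCRT complexes, which bud it into vesicles inside the late endosome. MON1 exchanges Rab5 for Rab7, and HOPS then tethers the late endosome to the lysosome. In NK cells the same route handles internalised receptors, and late endosomes and lysosomes are the precursors of cytotoxic granules.

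The labels do not tell whether replicates were separate animals or cultures. P-values therefore measure the spread among the 4 libraries alone, and that spread may be technical. Relative depth was estimated from the most frequent ratio of a library's low values to those of control replicate 1. Taken as the worth of 1 fragment, this ratio was 2.509 and 2.494 in DKK2 replicates 1 and 2 and 2.848 in control replicate 2. It was held by 218 of 2384, 206 of 2277 and 175 of 2283 genes compared. By this estimate control replicate 1 was the deepest library, and DKK2 replicates 1 and 2 and control replicate 2 had 0.399, 0.401 and 0.351 of its depth. The 6 NK markers checked (Ncr1, Klrb1c, Klrk1, Eomes, Prf1 and Gzmb) were present in every library, with Ncr1 at 389 and 197 FPKM in the DKK2 libraries and 303 and 193 FPKM in the controls. Summed, the 6 markers were at 9267 and 8213 FPKM in the DKK2 libraries and 14149 and 12013 FPKM in the controls. Most of these sums was Gzmb, at 6895 and 6115 FPKM in the DKK2 libraries and 11543 and 9908 FPKM in the controls. Of the 6 markers, 4 had a log2 fold change above 0 with DKK2, and 2 (Prf1 and Gzmb) were lower. Markers of other cells were lowest in control replicate 1 for all 26 genes checked and were higher in both DKK2 libraries as sums. The 7 T cell markers summed to 262 and 219 FPKM in the DKK2 libraries, against 53.6 and 158 FPKM in control replicates 1 and 2. The 6 B cell markers summed to 188 and 138 FPKM against 2.33 and 66.0 FPKM, the 7 monocyte and macrophage markers to 659 and 345 FPKM against 7.88 and 206 FPKM, and the 6 neutrophil markers to 3356 and 119 FPKM against 1.04 and 61.3 FPKM. Cd8a, Cd8b1, C1qa, C1qc, Camp and Elane were listed at 0 in control replicate 1. Their part in the results below was not tested, and in bulk RNA fewer cells of a type and less RNA per cell cannot be told apart.

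A pair of coding sequences is shown first because it illustrates a grading of the values between libraries that is described with the values further on. Rab11a and Rab11b encode close paralogues of the recycling endosome GTPase. Their transcripts, however, differ in GC content, 44.8% for Rab11a and 56.0% for Rab11b. The first 240 coding bases of each are given 5′ to 3′ from the GENCODE M21 annotation of GRCm38, where Rab11a lies on the minus strand of chromosome 9 and Rab11b on the minus strand of chromosome 17. Capitals mark a G or C where the other paralogue has A or T at the same place.
Rab11a: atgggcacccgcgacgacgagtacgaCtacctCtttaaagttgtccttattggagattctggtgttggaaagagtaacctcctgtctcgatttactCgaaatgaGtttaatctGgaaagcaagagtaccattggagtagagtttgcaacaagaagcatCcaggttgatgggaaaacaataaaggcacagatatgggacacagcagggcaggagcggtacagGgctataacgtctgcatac
Rab11b: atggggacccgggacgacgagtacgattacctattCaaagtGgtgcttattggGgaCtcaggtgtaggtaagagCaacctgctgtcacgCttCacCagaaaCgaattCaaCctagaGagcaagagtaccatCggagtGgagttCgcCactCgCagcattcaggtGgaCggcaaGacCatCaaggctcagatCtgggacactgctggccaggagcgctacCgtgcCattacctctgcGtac
The stretches were identical at 78.8% of bases. Rab11b carried G or C against A or T at 27 places, 25 of them at the last base of a codon, and Rab11a at 7 places. Over the whole coding sequence the last base was G or C in 67.9% of codons of Rab11b and 39.8% of codons of Rab11a.

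Most of these genes were expressed above the middle of the transcriptome. In 35 of 45 the mean level lay above the median of the 12275 genes tested (13.8 FPKM), and the median of the 45 was 29.3 FPKM. The highest was Snx5, a sorting nexin with a BAR domain that works with retromer in retrieval to the Golgi, at 1014 and 532 FPKM in the DKK2 libraries and 544 and 600 FPKM in the controls. Rab11a followed, with a mean of 363 FPKM, then the ESCRT-III subunits Chmp4b and Chmp2a with means of 196 and 141 FPKM. At the low end, 5 genes had means under 5 FPKM: Rab4a, Pikfyve, Vps18, Mon1b and Mon1a. The precision of these low values is limited by depth, and the log2(FPKM + 1) scale used for fold changes understates their differences.

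**Figure D1:**
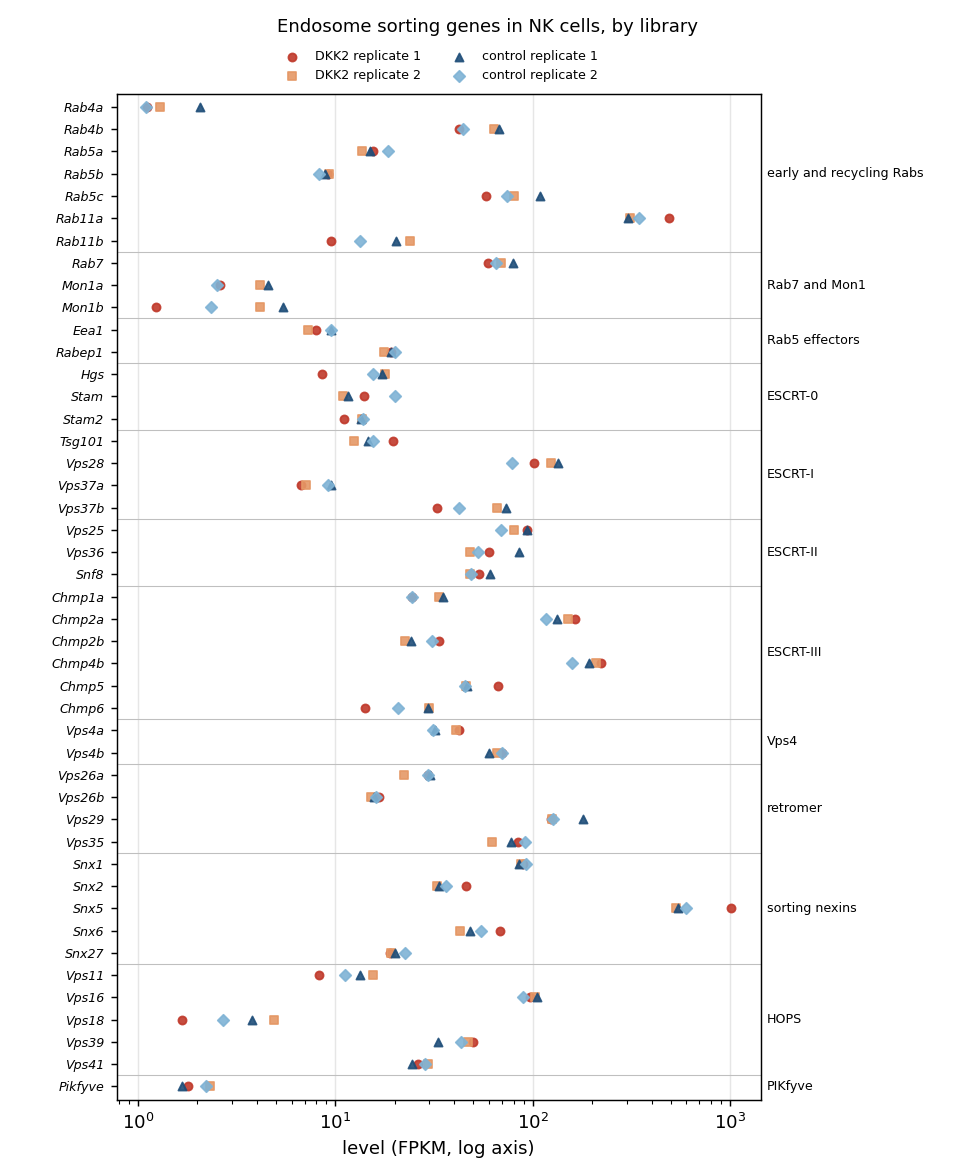
Level of each of the 45 endosome sorting genes in each library, in FPKM on a log axis, grouped by complex; circles and squares are DKK2 libraries, triangles and diamonds are controls. Levels span from a mean of 1.39 FPKM (Rab4a) to 673 FPKM (Snx5), and for most genes the DKK2 and control symbols interleave.

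None of the 45 genes was called different between DKK2 and control libraries. By limma with Benjamini-Hochberg adjustment over all 12275 genes tested, 0 of 45 passed an adjusted p of 0.05, 0 had an unadjusted p under 0.05, and the smallest unadjusted p was 0.159 (Vps4a). Over all genes tested, 0.0326% passed (0.00815% as higher, 0.0244% as lower) and 1.84% had an unadjusted p under 0.05, so the count of 0 is near that background. The mean was higher with DKK2 in 19 genes and lower in 26, that is higher in 42.2%, against 43.6% of all genes. Their log2 fold changes (DKK2 minus control) ran from -0.45 to 0.38 with a median of -0.07, against -0.05 over all genes. The standard error (SE) of a fold change ranged from 0.23 to 0.57. The 95% intervals reached down to -1.93 (Mon1b) and up to 1.41 (Snx5), so changes of up to about those sizes were not excluded in these genes. Permuting 2 libraries against 2 exactly cannot give a two-sided p below 0.333, so genes were tested only in the fit that pools the spread over genes.

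Differences inside a group were mostly larger than the difference between groups. In 39 of 45 genes the replicates of at least one group differed by more than the group means did. A difference of single libraries varies more than one of means, so a majority is built into this count. Its share over all genes was not computed. The median absolute difference on the log2(FPKM + 1) scale was 0.28 between the DKK2 libraries and 0.24 between the controls, and the median absolute log2 fold change was 0.16. Over all genes tested these medians were 0.44, 0.28 and 0.22, so the pattern was not particular to the 45 genes. In 5 genes the pair of DKK2 libraries exceeded the pair of controls (11.8% of all genes tested did so), and in 6 it was under them (14.8% of all genes). Together this is 24.4% of the 45, against 26.5% of all genes tested, a share near the background.

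**Figure D2:**
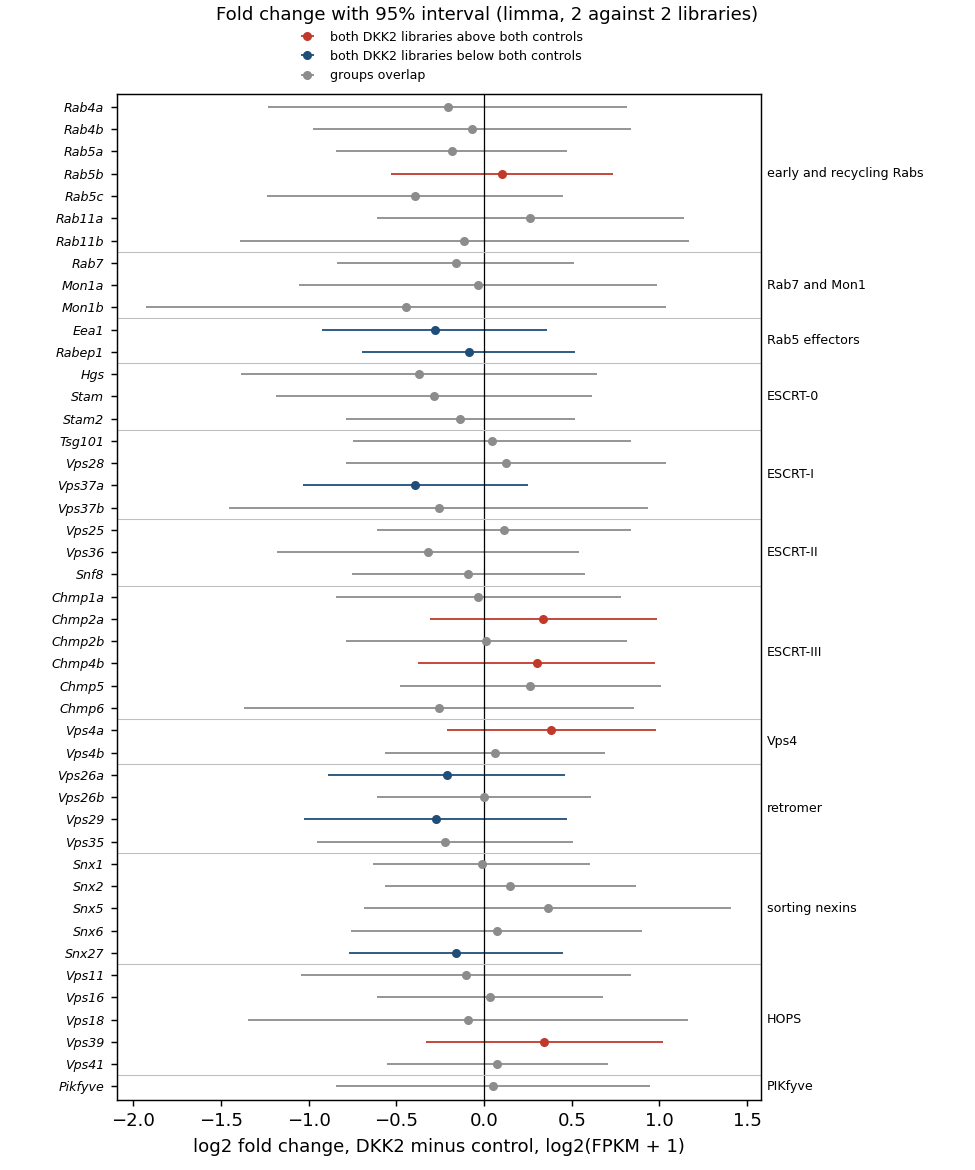
Log2 fold change of each gene (DKK2 minus control, log2(FPKM + 1)) with its 95% interval from limma, 2 libraries a group, grouped by complex. Red marks the 5 genes with both DKK2 libraries above both controls and blue the 6 with both below; every interval crosses 0.

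Rab5 marks the early endosome and was represented by all 3 of its paralogues. Rab5c was the most abundant, at 57.8 and 80.5 FPKM in the DKK2 libraries and 109 and 74.4 FPKM in the controls, which made up 70.1% and 77.8% of the summed Rab5 FPKM with DKK2 and 81.9% and 73.6% in the controls. Rab5a was at 15.5 and 13.7 FPKM under DKK2 against 15.1 and 18.5 FPKM (log2 fold change -0.18 ± 0.25 SE, or -0.045 without control replicate 2), and these ranges overlap. Rab5b lay just above both controls in both DKK2 libraries, at 9.14 and 9.34 FPKM against 8.89 and 8.23 FPKM (0.10 ± 0.25). Eea1, the coiled-coil tether that Rab5 recruits to drive early endosome fusion, was below both controls in both DKK2 libraries, at 8.01 and 7.23 FPKM against 9.45 and 9.49 FPKM (-0.28 ± 0.25; adjusted p from limma, 0.9996). With GC content and length adjusted, the log2 fold change of Eea1 was -0.11 and the groups overlapped. Rabep1, which encodes the Rab5 effector rabaptin-5, had 19.14 and 17.7 FPKM under DKK2 against 19.14 and 20.1 FPKM (-0.09 ± 0.23), and its groups were separated by less than the rounding of these values.

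The recycling Rabs were each dominated by one paralogue. Rab11a, which serves slow recycling, made up 98.1% and 92.8% of the Rab11 FPKM with DKK2 and 93.7% and 96.3% in the controls. It was at 492 and 310 FPKM under DKK2, with the controls at 304 and 347 FPKM (0.26 ± 0.34), the high value being that of DKK2 replicate 1 alone. Without that library its log2 fold change was -0.07. Rab11b went the other way within each group, at 9.51 and 23.8 FPKM under DKK2, with the controls at 20.4 and 13.3 FPKM, so that DKK2 replicate 1 held the highest Rab11a and the lowest Rab11b of the 4 libraries. Rab4b, of fast recycling, was at 42.5 and 64.0 FPKM under DKK2, with the controls at 67.4 and 44.4 FPKM, and made up at least 97.0% of Rab4 FPKM in each library. Rab4a was at 1.11 and 1.29 FPKM under DKK2, with the controls at 2.06 and 1.10 FPKM. In the GRCm38 annotation 65.0% of the exonic bases of Rab4b are shared with Gm21983, another gene on the same strand, so the split of reads between the rows is uncertain.

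Conversion to late endosomes depends on Rab7 and its exchange factor MON1, which acts with CCZ1. Rab7 was at 59.5 and 69.3 FPKM under DKK2, with the controls at 79.8 and 64.9 FPKM (-0.16 ± 0.26), so the groups overlapped; without control replicate 1 the log2 fold change was -0.02. Mon1a was at 2.62 and 4.18 FPKM under DKK2, with the controls at 4.58 and 2.52 FPKM. Mon1b varied most among the 45 genes within the controls, at 1.23 and 4.17 FPKM under DKK2, with the controls at 5.41 and 2.34 FPKM. Both MON1 genes were low in DKK2 replicate 1 and control replicate 2 and high in the other pair. Pikfyve, the kinase that makes the late endosomal lipid PI(3,5)P2, had 1.80 and 2.31 FPKM under DKK2 against 1.68 and 2.22 FPKM (0.05 ± 0.35).

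The ESCRT machinery acts in sequence, from recognition of ubiquitinated cargo to membrane scission. Hgs, Stam and Stam2 form ESCRT-0, which binds the cargo. Hgs was at 8.53 and 17.8 FPKM under DKK2, with the controls at 17.2 and 15.5 FPKM (-0.37 ± 0.39), and the low value belonged to DKK2 replicate 1; without that library its log2 fold change was 0.12. Stam and its paralogue Stam2 were expressed at similar levels, Stam at 14.02 and 10.9 FPKM under DKK2, with the controls at 11.6 and 19.96 FPKM, and Stam2 at 11.1 and 13.7 FPKM under DKK2, with the controls at 13.5 and 13.8 FPKM. Tsg101, the ubiquitin-binding core of ESCRT-I, had 19.6 and 12.4 FPKM under DKK2 against 14.6 and 15.6 FPKM (0.05 ± 0.31). Again DKK2 replicate 1 stood at one end, and without it the log2 fold change of Tsg101 was -0.27.

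Vps37a and Vps37b are alternative ESCRT-I subunits and differed between libraries in different ways. Vps37a had the largest negative difference among the genes whose groups did not overlap, at 6.68 and 7.10 FPKM under DKK2 against 9.53 and 9.16 FPKM (-0.39 ± 0.25; adjusted p from limma, 0.9996). Its 95% interval ran from -1.03 to 0.25. Leaving out any 1 library gave a log2 fold change of Vps37a between -0.43 and -0.35, but with GC content and length adjusted it was -0.24 and the groups overlapped. The far more abundant Vps37b was at 32.8 and 65.8 FPKM under DKK2, with the controls at 73.4 and 42.5 FPKM, with the lowest values again in DKK2 replicate 1 and control replicate 2. Hip1r on the opposite strand overlaps 32.9% of the annotated exonic bases of Vps37b, and the sources used here do not give whether counting used strand. Of the other ESCRT-I and ESCRT-II subunits, Vps28 had a mean of 110 FPKM, and the ESCRT-II subunits Vps25, Vps36 and Snf8 had means of 84.0, 61.6 and 52.7 FPKM, all with overlapping groups. Vps25 shares 67.2% of its annotated exonic bases with Ramp2 on the same strand, so its value is uncertain.

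ESCRT-III subunits polymerise at the neck of the budding vesicle and the ATPase VPS4 disassembles them. Of the 8 genes of this step, 6 had higher means with DKK2 and 2 lower, none passing limma, with a median log2 fold change of 0.16 against -0.05 over all genes, of which 43.6% had higher means. The groups were separated, with DKK2 higher, in 3 of the 8, against 11.8% of all genes tested. The earlier ESCRT steps did not share this direction: means were higher with DKK2 in 0 of 3 ESCRT-0, 2 of 4 ESCRT-I and 1 of 3 ESCRT-II genes. Over all 18 ESCRT and VPS4 genes 9 were higher and 9 lower, with a median log2 fold change of -0.01. Vps4a had 42.2 and 40.8 FPKM under DKK2 against 32.1 and 31.2 FPKM (0.38 ± 0.23, 95% interval -0.21 to 0.98; adjusted p from limma, 0.9996). Its replicates differed by 0.05 on the log2 scale with DKK2 and by 0.04 in the controls, and its log2 fold change lay between 0.36 and 0.41 whichever library was left out. Chmp2a had 164 and 151 FPKM under DKK2 against 132 and 117 FPKM (0.34 ± 0.25), and Chmp4b, the main filament-forming subunit, had 221 and 210 FPKM against 193 and 159 FPKM (0.30 ± 0.26, or 0.16 without control replicate 2). The other VPS4 paralogue, Vps4b, overlapped between groups, at 69.6 and 66.0 FPKM against 60.4 and 69.5 FPKM (0.06 ± 0.24). Vps4a made up 37.7% and 38.2% of VPS4 FPKM with DKK2 and 34.7% and 30.9% in the controls.

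The other ESCRT-III subunits among the 45 genes did not share that order. Chmp6, which nucleates ESCRT-III, was at 14.1 and 29.9 FPKM under DKK2, with the controls at 29.5 and 20.9 FPKM. Chmp5 was high only in DKK2 replicate 1 (67.1 FPKM), since DKK2 replicate 2 had 46.0 FPKM and the controls 46.7 and 45.5 FPKM. Chmp2b had 33.6 and 22.6 FPKM under DKK2 against 24.2 and 30.9 FPKM, and Chmp1a had 24.4 and 33.4 FPKM against 35.0 and 24.4 FPKM. Of ESCRT-III genes outside the 45, Chmp3 and Ist1 had both DKK2 libraries above both controls. Chmp3 had 86.9 and 89.6 FPKM under DKK2 against 70.6 and 64.3 FPKM (0.38 ± 0.24). Ist1 had 65.1 and 46.6 FPKM against 42.7 and 45.1 FPKM (0.32 ± 0.28). The groups of Chmp1b and Chmp7 overlapped, with log2 fold changes of -0.21 and -0.16. Summed over the 8 genes the level was 636 and 600 FPKM under DKK2, while the controls had 553 and 497 FPKM. Chmp4b and Chmp2a were the largest parts of these sums in every library. The summed markers of T cells, B cells, monocytes and macrophages, and neutrophils given above were also higher in both DKK2 libraries, though not every single marker was. Between the controls the order differed: the marker sums were lower in control replicate 1, and the sum over the 8 genes was higher there. The part of other cells in these values was not tested.

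Retromer retrieves cargo from endosomes through a trimer of VPS26, VPS29 and VPS35, which SNX27 links to recycling receptors. Vps29 was at 124 and 125 FPKM under DKK2 against 181 and 126 FPKM (-0.28 ± 0.29), so the separation from control replicate 2 was about 1 FPKM, and without control replicate 1 its log2 fold change was only -0.02. Vps26a had 29.5 and 22.2 FPKM under DKK2 against 30.1 and 29.6 FPKM (-0.21 ± 0.26), again with one DKK2 library next to the controls. Its log2 fold change was -0.02 without DKK2 replicate 2 and -0.41 without DKK2 replicate 1. Vps35, the scaffold of the trimer, had 84.3 and 62.0 FPKM under DKK2 against 77.6 and 91.9 FPKM (-0.22 ± 0.28). With 1 library left out the log2 fold change of Vps35 ranged from -0.44 without DKK2 replicate 1 to -0.0036 without DKK2 replicate 2. Vps26b hardly differed, at 16.6 and 15.1 FPKM against 15.7 and 16.1 FPKM. Snx27 had 18.9 and 19.1 FPKM under DKK2 against 20.1 and 22.6 FPKM (-0.16 ± 0.24, or -0.08 without control replicate 2). Which of the 6 genes lay below both controls depended on the processing. With each library scaled to the same median, or with quantile normalization, these were Eea1 and Vps37a. With GC content and length adjusted, an alternative chosen after seeing the data, they were Snx27 and Vps26a, and Eea1, Rabep1, Vps29 and Vps37a had overlapping groups. None of the 6 was below both controls under all of these settings.

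The sorting nexins with BAR domains, Snx1 and Snx2 on one side of the dimer and Snx5 and Snx6 on the other, all had overlapping groups. Snx1 was nearly level over the libraries, at 89.3 and 86.8 FPKM under DKK2, with the controls at 85.1 and 92.9 FPKM. Snx2 was at 45.9 and 32.9 FPKM under DKK2, with the controls at 33.6 and 36.4 FPKM, and Snx6 at 68.5 and 42.6 FPKM under DKK2, with the controls at 47.9 and 54.95 FPKM. In Snx2, Snx5 and Snx6 the highest of the 4 libraries was DKK2 replicate 1 and the lowest DKK2 replicate 2.

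HOPS tethers late endosomes to lysosomes, with VPS11, VPS16 and VPS18 in its core and VPS39 and VPS41 at its ends. Vps39 was the only one with separated groups, at 50.0 and 47.3 FPKM under DKK2 against 33.3 and 43.5 FPKM (0.34 ± 0.26; adjusted p from limma, 0.9996), and most of the gap came from control replicate 1, since without it the log2 fold change was 0.16. Vps18 was at 1.66 and 4.89 FPKM under DKK2, with the controls at 3.80 and 2.71 FPKM (-0.09 ± 0.48). DKK2 libraries were thus both the lowest and the highest for Vps18. Vps11 was ordered likewise, at 8.25 and 15.4 FPKM under DKK2, with the controls at 13.4 and 11.2 FPKM. Vps16 and Vps41 varied little, with means of 98.6 and 27.2 FPKM.

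Across libraries, the differences between replicates of the 45 genes were graded with the base composition of their transcripts. GC content was taken as the median over the coding transcripts of each gene in the GENCODE M21 annotation and ranged from 39.8% (Vps37a) to 59.2% (Rab4b). The 11 genes of 55% GC or more were Rab4b, Rab5c, Rab11b, Hgs, Vps37b, Snf8, Chmp1a, Chmp4b, Chmp6, Mon1a and Vps18. In 9 of these 11 both DKK2 replicate 1 and control replicate 2 lay below both DKK2 replicate 2 and control replicate 1. Of the 16 genes under 45% GC, the reverse order held in 9 and that order in 0.

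Within the DKK2 group, replicate 2 minus replicate 1 had a median log2 difference of 0.58 over the 11 GC-rich genes and of -0.37 over the 16 GC-poor ones. Within the controls, the same difference was -0.50 and 0.19. Across the 45 genes, which share the same 4 libraries, the difference correlated with GC content at Pearson r = 0.71 (Spearman rho 0.70) within the DKK2 group and at r = -0.72 (rho -0.75) within the controls. The relation was not confined to endosome genes: over the 10127 genes tested that have a GC value, r was 0.49 within the DKK2 group and -0.29 within the controls (rho 0.53 and -0.47). Between the group means the slope nearly cancelled, with r = -0.04 over the 45 genes and -0.08 over all. Even so, 10 of the 11 GC-rich genes had lower means with DKK2 and 1 a higher mean (median -0.09). Over all genes, 1611 of 2523 GC-rich ones were lower (median -0.11). The 16 GC-poor genes split into 9 higher and 7 lower, and over all genes 1126 of 2059 GC-poor ones were lower. With transcript length (log2) the 45 genes gave r = 0.08 within the DKK2 group and 0.31 within the controls.

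**Figure D3:**
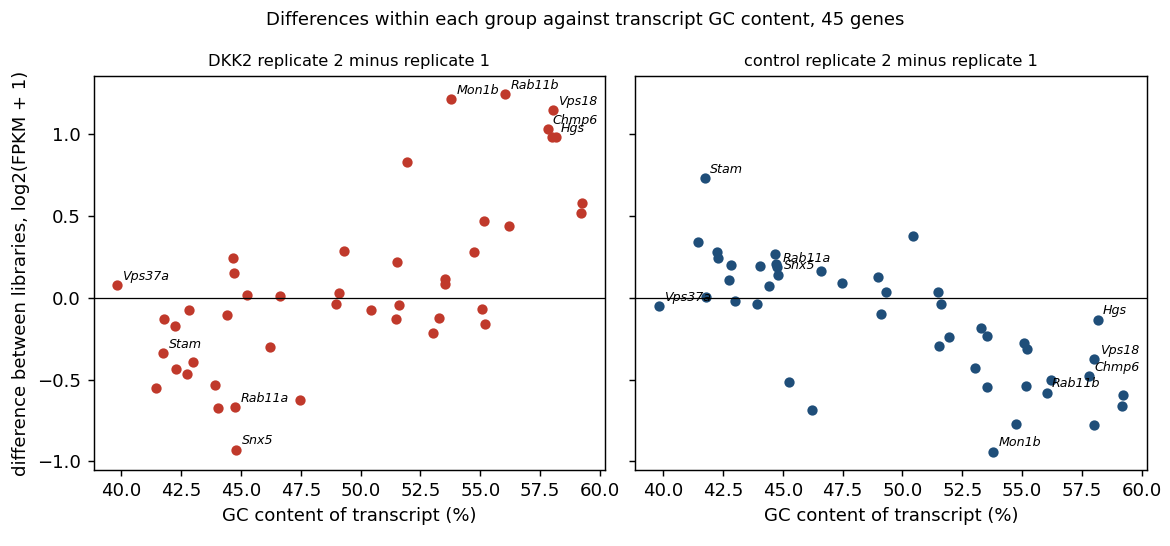
Difference between the replicates of each group (replicate 2 minus replicate 1, log2(FPKM + 1)) against the GC content of the transcript in percent, one point per gene, 45 genes; DKK2 on the left, control on the right. The difference increases with GC content in the DKK2 group (r = 0.71) and decreases in the controls (r = -0.72).

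The Rab11 pair shown above is an example. Rab11b was lower in DKK2 replicate 1 than in DKK2 replicate 2 by 1.24 on the log2 scale, and Rab11a higher by 0.67. In the controls, replicate 2 minus replicate 1 was -0.58 for Rab11b and 0.19 for Rab11a. The share of Rab11b in the Rab11 FPKM was accordingly 1.89% and 7.15% in the DKK2 libraries and 6.27% and 3.69% in the controls. The 5 genes with DKK2 above both controls had GC contents between 49.1% (Rab5b) and 55.1% (Chmp4b), and the 6 with DKK2 below both between 39.8% (Vps37a) and 46.6% (Snx27).

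**Figure D4:**
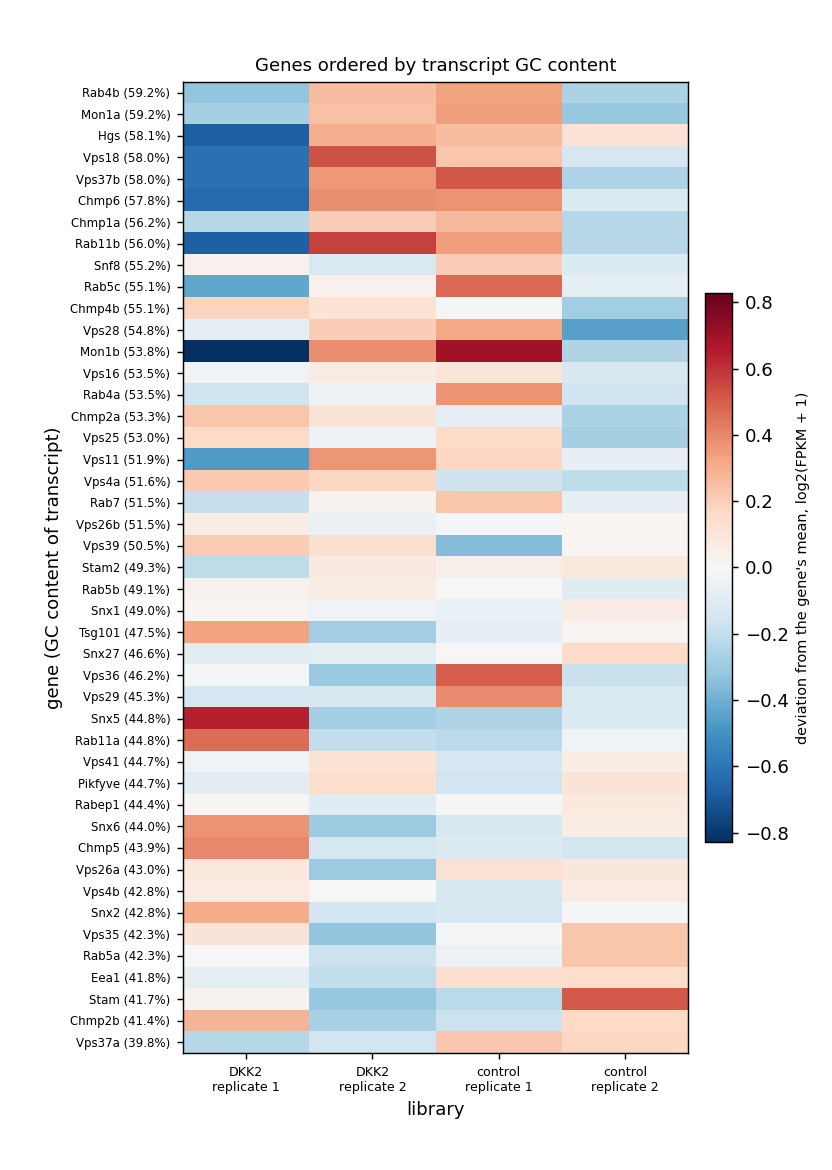
Deviation of each library from the gene's mean over the 4 libraries, on the log2(FPKM + 1) scale, for 45 genes ordered by GC content from the highest (59.2%) at the top to the lowest (39.8%) at the bottom. In the GC-rich rows DKK2 replicate 1 is mostly blue (low) and DKK2 replicate 2 mostly red (high), and Snx5 and Rab11a show the opposite.

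Promoter windows (250 bases before to 50 bases after the start site, RefSeq, GRCm38.p6) were at hand for 33 of the 45 genes, 36 windows in all. Their median GC content was 62.8%, against 52.7% over all 32851 windows, and their median count of CG pairs was 23.5 against 7. The motif shares below were not matched for this composition, and CACGTG itself holds a CG pair. An E-box, CACGTG, the core of the element bound by TFEB and related factors that control lysosomal genes, was found on either strand in 5 windows (13.9%), those of Rab5a, Snx5, Vps16 and Vps26a, against 7.15% of all windows. Both windows of Vps26a are among the 5. They overlap and share an E-box, so by gene the count was 4 of 33. The share by gene over all windows was not computed. A STAT-type site, TTCNNNGAA, was found in 1 window (2.78%), that of Rab11a, against 8.30% of all, and the TCF/LEF site CTTTGAT in 0, against 3.73% of all. No motif overlapped another. The windows of Rab5a and Vps26a are shown for their E-boxes (capitals), and that of Vps4a because it was the gene with the smallest p and holds none of the 3 motifs. They lie at chr17:53478984-53479283 (plus strand), chr10:62486549-62486848 (minus strand, one of the windows of this gene) and chr8:107031019-107031318 (plus strand), and are written 5′ to 3′ in the direction of the gene.
Rab5a: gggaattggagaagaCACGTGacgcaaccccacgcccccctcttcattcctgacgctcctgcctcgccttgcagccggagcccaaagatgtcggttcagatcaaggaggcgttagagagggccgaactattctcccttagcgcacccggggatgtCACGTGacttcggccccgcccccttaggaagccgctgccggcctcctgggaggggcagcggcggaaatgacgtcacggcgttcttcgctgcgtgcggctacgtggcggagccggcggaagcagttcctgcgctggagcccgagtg
Vps26a: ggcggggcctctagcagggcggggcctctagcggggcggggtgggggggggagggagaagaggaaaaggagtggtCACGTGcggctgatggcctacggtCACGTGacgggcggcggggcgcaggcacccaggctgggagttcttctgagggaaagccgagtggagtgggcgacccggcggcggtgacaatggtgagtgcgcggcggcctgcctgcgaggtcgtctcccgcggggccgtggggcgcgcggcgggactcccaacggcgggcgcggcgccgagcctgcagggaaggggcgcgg
Vps4a: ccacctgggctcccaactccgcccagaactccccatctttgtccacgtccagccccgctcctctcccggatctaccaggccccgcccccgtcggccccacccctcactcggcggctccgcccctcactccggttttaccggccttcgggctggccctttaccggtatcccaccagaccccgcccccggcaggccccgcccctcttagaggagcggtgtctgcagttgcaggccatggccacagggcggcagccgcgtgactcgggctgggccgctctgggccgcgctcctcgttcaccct
Of the 4 E-box genes, Rab5a, Snx5 and Vps16 had overlapping groups, Vps26a had both DKK2 libraries below both controls, and 0 passed limma.

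A longer list of 106 other endosome genes was read from the same fit, of which 102 were in the table and 98 were high enough to test. It holds further Rabs and Rab effectors, ESCRT partners, the WASH and Commander complexes, more sorting nexins, CORVET and PI3P enzymes. By limma 0 of 98 passed and 0 had an unadjusted p under 0.05. The mean was higher in 40 and lower in 58, with a median log2 fold change of -0.07, and 23.5% had separated groups (10 above, 13 below), against 26.5% of all genes. The largest separated difference was in Snx14, a sorting nexin of the endoplasmic reticulum and lipid droplets, at 19.0 and 10.4 FPKM under DKK2 against 6.71 and 9.14 FPKM (0.77 ± 0.37). Ehd4, a membrane-remodelling ATPase of recycling endosomes, had 60.5 and 117 FPKM under DKK2 against 135 and 119 FPKM (-0.59 ± 0.39), with the low value in DKK2 replicate 1. Rab31, of trafficking between Golgi and endosomes, had 9.35 and 10.6 FPKM under DKK2 against 5.27 and 8.28 FPKM (0.52 ± 0.31).

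The remaining 5 of the 8 largest separated differences were smaller. Appl2, a Rab5 effector of signalling endosomes, had 12.7 and 15.2 FPKM under DKK2 against 7.96 and 11.8 FPKM (0.47 ± 0.30). Inpp4a, a phosphoinositide phosphatase, had 1.42 and 1.23 FPKM under DKK2 against 0.521 and 0.928 FPKM (0.44 ± 0.39). Lower in both DKK2 libraries were Tbc1d5, a GTPase-activating protein for Rab7 that binds retromer (7.65 and 12.2 FPKM against 12.8 and 14.1 FPKM, -0.43 ± 0.31), Arf6, a GTPase of surface recycling (117 and 94.5 FPKM against 134 and 149 FPKM, -0.42 ± 0.26), and Rab22a, a Rab5 relative (7.28 and 10.1 FPKM against 13.0 and 10.5 FPKM, -0.40 ± 0.29). By class, the share with separated groups ran from 0% of the 14 Commander genes to 66.7% of 3 WASH genes, against 26.5% of all genes tested. Means were lower in all 5 CORVET and HOPS genes outside the 45 (median -0.21), and in 7 of 8 genes left unclassed. Of all genes tested, 56.4% were lower. The 5 HOPS genes among the 45 split into 3 higher and 2 lower. None of these genes passed limma. Each of the 8 named differences moved by over 1.5 times when 1 library was left out. Without DKK2 replicate 1 the log2 fold change was 0.36 for Snx14, -0.12 for Ehd4, -0.13 for Tbc1d5 and -0.19 for Rab22a. Without control replicate 1 it was 0.24 for Rab31, 0.22 for Appl2 and 0.27 for Inpp4a, and without DKK2 replicate 2 it was -0.27 for Arf6. Inpp4a, the lowest of the 8 in level, was also at 0.83 with a pseudocount of 0.1 FPKM and at 0.27 with quantile normalization, so its size depended on the pseudocount and the scaling.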

How the data were processed

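RNA was sequenced from 4 libraries with a strand-specific total RNA kit, per the labels' protocols. The authors deposited FPKM values per gene in 1 table. Tools listed, without order or role, per the submitters' processing notes are edgeR, Cuffdiff (2.1.0), TopHat2 (2.1.0) and CASAVA; the build is mm9. The gene annotation, the use of strand and the treatment of reads with several matches are not given in the sources used here. The table holds 37305 rows, of which 14436 are at 0 in every library.

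Groups were taken from the labels. Values were tested as log2(FPKM + 1) in R 4.3.3 by limma 3.58.1 (two-sided, moderated with a trend on the mean), for 12275 genes averaging 1 FPKM or more, with Benjamini-Hochberg adjustment over all of them and a threshold of 0.05. Since FPKM were deposited and not counts, no count model was used, and values carry no counting error of their own. Named genes were anchor members, members with separated groups, members of paralogue families, and the 8 other endosome genes with the largest separated differences. Further members illustrate each complex, and Chmp3, Ist1, Chmp1b and Chmp7 were added for ESCRT-III outside the 45. The 45 members and all lists were chosen with earlier results of these data known. GC content and length came from GENCODE M21 transcripts (GRCm38), the median per gene over protein-coding transcripts, and were had for all 45 members and 82.5% of genes tested. Since the files' build is mm9, no coordinates from the table were used. Promoters came from RefSeq (GRCm38.p6). The alternatives were other pseudocounts (0.1 and 0.5 FPKM), other filters, median and quantile scaling, the replicate number as a block, each library left out, and an adjustment for GC content and length (loess, span 0.5) chosen after seeing the data.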

Additional observations from a re-analysis of the deposited data

How the results depend on the processing

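Under all 14 alternatives 0 of the 45 endosome genes passed the threshold of the limma fit (smallest adjusted p from 0.596 to 1). Vps4a reached an unadjusted limma p of 0.0247 without the filter, and Hgs reached 0.0393 without DKK2 replicate 2; no other member went under 0.05 in any alternative. Over all genes tested the count of 4 became 0 without the filter, 8 with the replicate block, 0 with GC and length adjusted, and 0 to 0 when 1 library was left out. The labels do not say whether the replicate numbers pair the libraries. Deviations of same-numbered libraries from their group means correlated at r = 0.012 over 12275 genes. This value cannot decide it, since replicate differences were graded with GC content in opposite directions in the groups. Genes below both controls numbered 2 in place of 6 with median scaling and with quantile normalization (11.5% and 13.96% of all genes were then below). With GC and length adjusted, 11 in place of 5 were above both controls (18.7% of all genes), all 5 among them, and 5 were below (15.8% of all genes), of which 2 were among the 6. The cause was not tested. Of 277 values of 28 named genes with 4 libraries, 275 kept their direction. Pikfyve became -0.0542 with quantile normalization, and Vps18 became 0.0831 with GC and length adjusted. With 1 library left out, where the lone library of a group is assumed to vary like the other group, 104 of 112 values kept it. The ranges were -0.86 to 0.12 for Hgs, -0.0828 to 0.18 for Pikfyve, -0.0698 to 0.60 for Rab11a, -0.27 to 0.36 for Tsg101, -0.66 to 0.48 for Vps18 and -0.0355 to 0.16 for Vps4b. Depth limits the 5 genes under 5 FPKM most.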
